A study of Bos taurus with 96 samples.

Results

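The 9 genes described here, INHBA, INHBB, FST, BMP2, BMP4, GREM1, TGFB1, TGFB2 and TGFB3, encode secreted signals of the activin, bone morphogenetic protein (BMP) and transforming growth factor beta (TGF-beta) family and inhibitors that bind them, and were chosen by name from 10653 genes named among the probes tested. Probes were assigned to a gene by the bovine RefSeq accession in the array files or by the gene name in the study's own probe tables, which gave 20 probes, of which 16 were among the 34227 probes tested. The study compared gene expression between fat depots and muscle of steers on 96 one-colour arrays, with 4 arrays for each fat depot and breed. The 5 fat depots, each with 12 arrays, were intramuscular fat dissected out of the longissimus dorsi muscle (IMF), omental fat (Omen), kidney fat (Kid), the fat between muscles (Inter) and subcutaneous fat over the rump (SC). The whole longissimus dorsi muscle with its IMF in place (LD) was measured on 36 arrays.

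The breeds were Angus, Hereford and Wagyu cross Angus (Wagyu x Angus). All fat arrays came from steers labelled Pasture Feeding, whereas LD had 24 arrays labelled Pasture Feeding and 12 labelled Supplemental Feeding, the feeding before the feedlot. The labels give all animals 259 days in a feedlot, and the study's methods give an age of 26 months for the main kill. Some LD samples came from an earlier kill that the labels do not tell apart, so all LD arrays were treated as 1 group. The labels do not name the steer behind an array and several depots came from the same steers, so that every p-value measures the spread between arrays and treats arrays of different depots as separate.

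Members of this family bind paired type I and type II receptors, which pass the signal to SMAD proteins that move to the nucleus. Activin A is a dimer of the inhibin beta A chain encoded by INHBA, and activin B of the beta B chain encoded by INHBB, and follistatin (FST) binds and neutralises activins. BMP2 and BMP4 are known to commit precursor cells to the fat lineage, and gremlin 1 (GREM1) is an antagonist that binds both of them. The 3 TGF-beta ligands are secreted in a latent form held in the extracellular matrix, and both TGF-beta and activin A are known to restrain the differentiation of fat cell precursors in culture.

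Levels are given as the log2 processed signal of a probe minus the 75th percentile of all probes on the same array, so that 1 unit is a doubling and 0 is the array's 75th percentile. The probe with the highest mean signal stands for each gene, levels are never compared between genes, and no level between tissues separates fewer cells of a type from less RNA per cell. Between 80.9% and 99.6% of probes were well above background on each array. Each array was scanned on 1 of 3 days. All IMF arrays were scanned on the third day, all Inter arrays on the second, and 11 of the 12 SC arrays on the first. Inter and SC therefore shared no day, so a fit of these 2 tissues alone cannot tell tissue from scan day. IMF and SC shared a day through 1 SC array. The summed marker levels checked the tissues. All 12 skeletal muscle markers were higher in IMF than in SC, and their mean level ran from 6.22 to 7.98 in IMF, from 8.39 to 9.10 in LD and from -4.56 to -2.99 in SC. All 7 smooth muscle markers were also higher in IMF, with mean levels of 4.62 to 7.24 in IMF, 3.54 to 5.09 in LD and 1.44 to 5.32 in SC. Of these 7 markers ACTG2 and DES had higher means in LD (7.71 and 8.83) than in IMF (5.90 and 7.80), and the other 5 had lower ones, so that the smooth muscle level also holds genes that are high in LD. In contrast, all 6 adipocyte markers were lower in IMF, at 1.84 to 4.55 against 4.45 to 5.12 in SC. The 4 tendon and perimysium markers were higher in IMF, as were 4 of the 5 Schwann cell markers, and all 5 macrophage markers were lower. These lists differed between IMF and SC beside the members below, and their part in the differences between tissues was not tested. On 3 arrays the marker levels stood apart. They were an SC array of a Hereford with a smooth muscle level of 5.32, an Inter array of a Wagyu x Angus with a skeletal muscle level of 5.86, and a Kid array of a Hereford with a macrophage level of 3.84.

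Of the 8 members with a probe tested, 7 differed between the 5 fat depots, with TGFB1 as the exception (adjusted p = 0.241). The TGFB2 call (adjusted p = 0.0338) was lost with slide as a random block (adjusted p = 0.117), with scan day as a block (adjusted p = 0.234) and without the 3 arrays that stood apart (adjusted p = 0.0554). The share of all probes that did so was 87.2%, and a count of 7 of 8 lies near it. In the comparison of IMF with SC 7 members passed the test, 5 higher and 2 lower, against 64.2% of all probes, of which 31.2% were higher and 33% lower. The share was 75.3% for IMF against LD, where all 8 passed with 7 higher and 1 lower in IMF (36.1% and 39.2% of all probes), and 82.9% for LD against SC, where 5 passed. The other depots were closer to SC. Inter differed from SC in 6 members (48.8% of all probes), Omen in 5 (45.7%) and Kid in 2 (41.7%). For the other pairs the shares of all probes were 62.7% for IMF and Inter, 55.8% for IMF and Kid, 56.2% for IMF and Omen, 15.4% for Inter and Kid, 13.6% for Inter and Omen and 12.1% for Kid and Omen, and they were 83.8%, 80.2% and 82.1% for LD against Inter, Kid and Omen. With scan day as a block, where the comparison with SC rests on the 1 SC array of the third day, 3 members passed for IMF (INHBA, BMP2 and TGFB3) and 0 for Omen, and of the 34227 probes 6847 and 1511 passed. Scan day was also put in a limma fit of all 96 arrays, which takes a day to act alike in all tissues. There the calls of the fat depots against SC held, except TGFB2 in IMF (0.15, adjusted p = 0.564) and FST in Inter (0.30, adjusted p = 0.383). The median member difference was 0.39 for IMF minus SC and 1.22 for IMF minus LD, where the medians over all probes were 0.00 and -0.04.

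**Figure D1:**
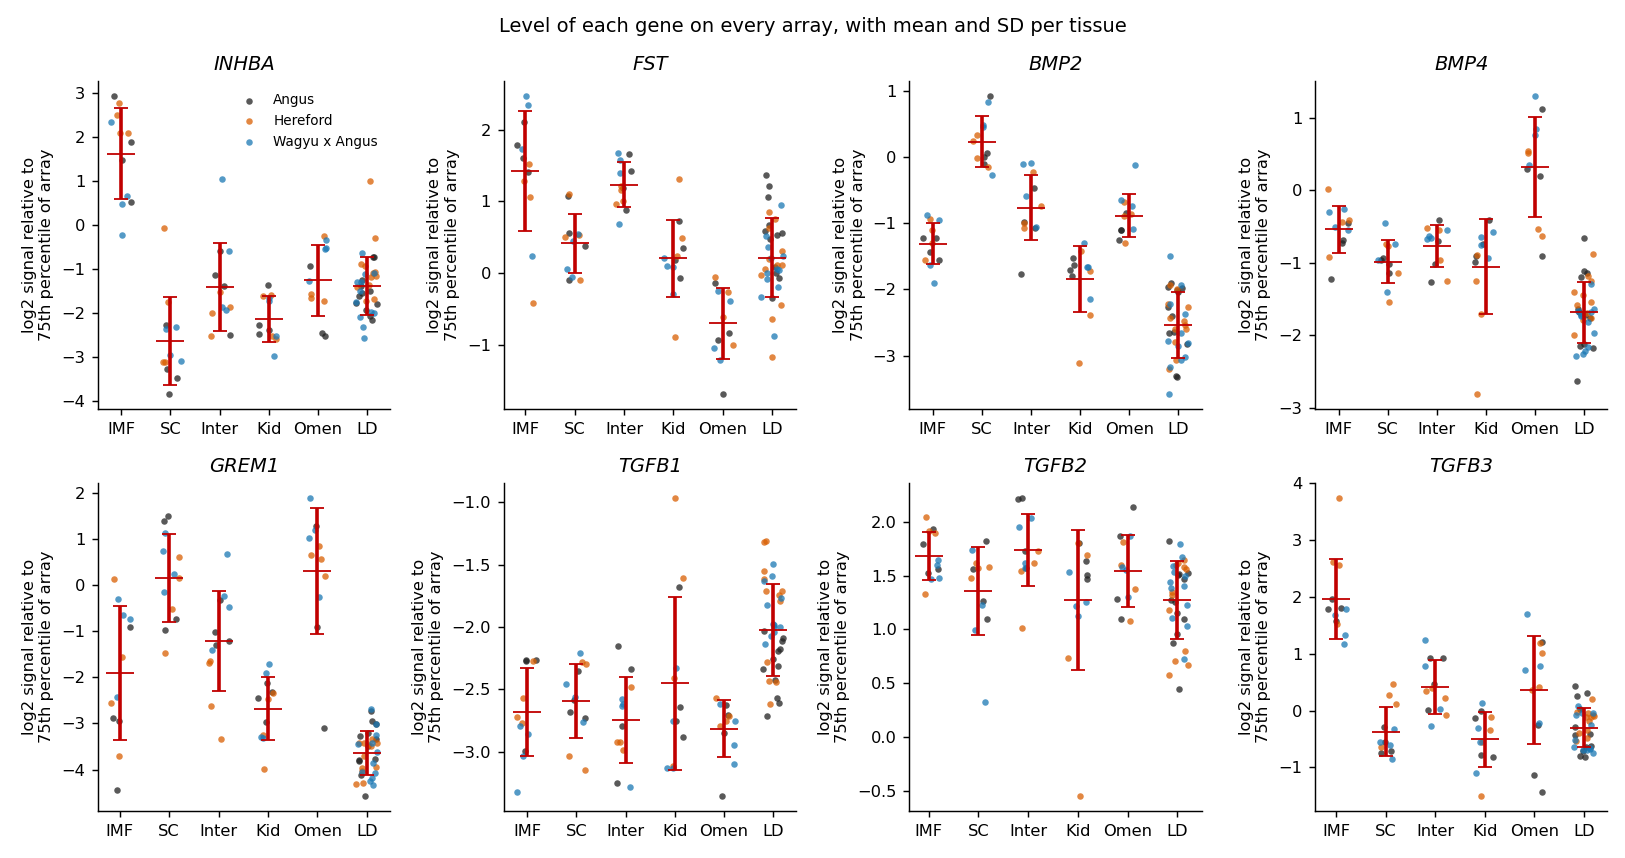
Level of the probe that stands for each gene on every array, in log2 units relative to the array's 75th percentile, by tissue; points are arrays, and lines are means with SD. INHBA and TGFB3 were highest in IMF, BMP2 was highest in SC, GREM1 was highest in Omen and SC, and BMP4 was highest in Omen.

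INHBA, the gene of the activin A chain, had its highest level in IMF. Its 12 IMF arrays ran from -0.24 to 2.92 with a median of 1.98, whereas the 12 SC arrays ran from -3.85 to -0.08 with a median of -3.02. The IMF mean of 1.62 ± 1.03 (SD, n = 12) was 4.25 ± 0.39 (SE) above the SC mean of -2.64 ± 0.998 (SD, n = 12), a 19.1-fold difference (limma, adjusted p = 1.80e-09), and 11 of the 12 IMF arrays lay above every SC array. The lone overlap came from the Hereford SC array with the high smooth muscle level, whose INHBA level of -0.08 was the highest of SC. INHBA was on the list of genes that the study chose on these samples, which is not independent evidence of its direction.

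The mean INHBA level of LD was below that of IMF. The 36 LD arrays ran from -2.57 to 0.99 with a median of -1.40, the highest of them above 4 of the 12 IMF arrays, and IMF was 3.01 ± 0.25 (SE) above LD, an 8.03-fold difference (adjusted p = 1.87e-15). Within the third scan day, which held 12 IMF and 8 LD arrays, the difference was 3.43. Omen, with 11 arrays from -2.53 to -0.27, stood second in the order of means at -1.26, followed by LD at -1.39, Inter at -1.41, Kid at -2.15 and SC at -2.64, and no neighbours in this order below IMF differed (adjusted p from 0.104 to 0.942). IMF was above Omen by 2.88 ± 0.37 (SE, adjusted p = 6.93e-07), and the 10 Omen arrays of the third day gave a difference of 2.91. Inter (by 1.23, adjusted p = 0.0113) and Omen (by 1.38, adjusted p = 0.00337) both lay above SC, whereas Kid (by 0.49, adjusted p = 0.210) did not pass the test. With normexp background correction Inter minus SC was 0.61 and no longer passed (adjusted p = 0.0677), where the median over all probes was -0.28. The 4 Inter arrays with a tendon and perimysium marker level above 0 (0.95 to 4.17) had the 4 highest INHBA levels (-1.13 to 1.03), and the other 8 were at -1.38 or below. The part of these cells in the Inter level was not tested. The highest Inter array, at 1.03, was the Wagyu x Angus array with the high skeletal muscle level.

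The other 3 probes for INHBA gave the same direction in IMF. The IMF minus SC differences were 2.25 ± 0.24, 4.71 ± 0.40 and 1.44 ± 0.19 (SE), with adjusted p-values of 3.38e-08, 3.49e-10 and 4.89e-07, and the IMF minus LD differences were 1.02, 3.02 and 0.85. Each of the 3 probes separated the IMF arrays from the SC arrays without overlap, which 14.9% of all probes did. The calls of INHBA in Inter and Omen did not hold on every probe. Inter minus SC was 0.44 (adjusted p = 0.0565), 1.73 (adjusted p = 0.000578) and -0.0546 (adjusted p = 0.765) on the other 3, and Omen minus SC was 0.64 (adjusted p = 0.00318), 1.54 (adjusted p = 0.000708) and 0.15 (adjusted p = 0.201). Kid minus SC, which did not pass on the leading probe, was 0.32 (adjusted p = 0.114), 1.07 (adjusted p = 0.00722) and 0.30 (adjusted p = 0.00622) on them.

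INHBB, the gene of the activin B chain, was close to background. Its brighter probe was well above background on 7 of 12 IMF arrays, 9 of 12 Inter arrays, 7 of 12 Kid arrays, 10 of 12 Omen arrays and 4 of 36 LD arrays, and on no SC array. The other probe did not follow it (r = 0.07 over 96 arrays). It was well above background on 4 of 12 SC, 2 of 12 IMF, 2 of 12 Inter, 5 of 12 Kid, 5 of 12 Omen and 2 of 36 LD arrays. Its means (-6.55 in SC and -7.66 in IMF) rest mostly on arrays not well above background. Neither of its 2 probes was among the probes tested. The bounds set by the dimmest detected probes gave no fold for any pair of tissues with SC.

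FST, which encodes the activin-binding protein follistatin, was high in IMF and Inter and low in Omen. The 12 IMF arrays ran from -0.42 to 2.47 with a median of 1.56, the 12 Inter arrays from 0.68 to 1.67 with a median of 1.20, the 12 SC arrays from -0.10 to 1.11 with a median of 0.48, and the 12 Omen arrays from -1.68 to -0.05 with a median of -0.72. All Inter arrays lay above all Omen arrays, and 0.21% of all probes had no overlap between these depots in either direction. The 2 depots differed by 1.93 ± 0.17 (SE, adjusted p = 5.30e-08). FST was 1.01 ± 0.26 (SE) higher in IMF than in SC (2.01-fold, adjusted p = 0.00137), and 9 of 12 IMF arrays lay above every SC array. It was 0.82 ± 0.15 (SE) higher in Inter than in SC (adjusted p = 7.02e-05; 0.30, adjusted p = 0.383, with scan day in a fit of all 96 arrays) and 1.11 ± 0.18 (SE) lower in Omen, a 2.17-fold difference (adjusted p = 2.32e-05). FST was also 1.21 ± 0.21 (SE) higher in IMF than in LD (adjusted p = 8.50e-07). IMF and Inter did not differ in FST at this spread (0.19, adjusted p = 0.514), and the level in LD (0.22 ± 0.55, SD, n = 36) did not differ from that of SC on all arrays (-0.20, adjusted p = 0.276). FST was lower in LD than in SC with scan day as a block (-0.47, adjusted p = 0.00840), within the first day (-0.59, adjusted p = 0.00153), with scan day in a fit of all 96 arrays (-0.44, adjusted p = 0.0244) and for the LD arrays with supplement alone (-0.53, adjusted p = 0.0182). INHBA and FST were therefore both higher in IMF than in SC and LD, whereas in Omen INHBA was above SC and FST was below it.

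**Figure D2:**
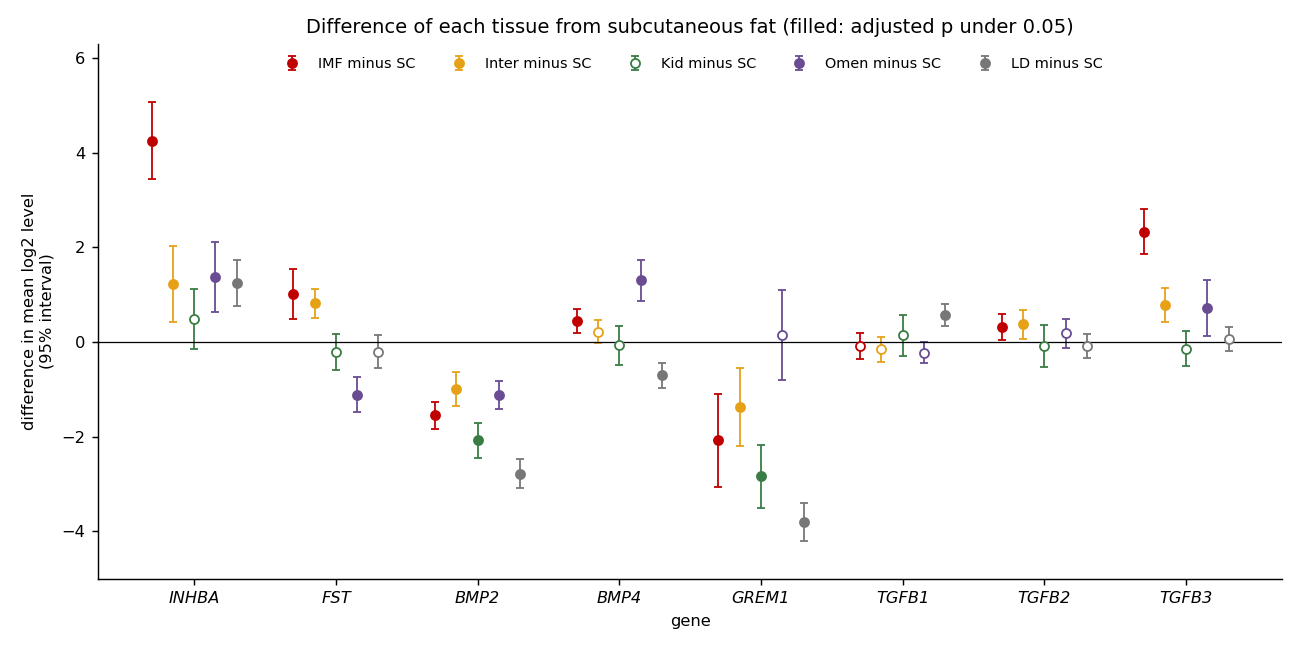
Difference of each tissue from SC in log2 units for the 8 members with a probe tested; points are differences of means, bars their 95% confidence intervals, and filled points passed the test. The difference of INHBA in IMF, 4.25, was the largest positive value, and that of GREM1 in LD, -3.80, the largest negative one.

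BMP2 had its highest level in SC. The 12 SC arrays ran from -0.26 to 0.93 with a median of 0.16, the 12 IMF arrays from -1.90 to -0.87, the 12 Kid arrays from -3.12 to -1.30 and the 36 LD arrays from -3.59 to -1.49. No array of IMF, Kid or LD reached the lowest SC array. BMP2 was lower than in SC by 1.54 ± 0.14 (SE) in IMF (2.92-fold, adjusted p = 1.34e-09), by 2.08 ± 0.18 in Kid (4.22-fold, adjusted p = 4.21e-09) and by 2.78 ± 0.15 in LD (6.85-fold, adjusted p = 2.06e-22). Groups without overlap were found for 14.9%, 3.52% and 35.1% of all probes in these 3 comparisons. Inter (by 0.9996, adjusted p = 5.26e-05) and Omen (by 1.12, adjusted p = 1.03e-06) were also lower than SC in BMP2. IMF lay between SC and LD, and was 1.23 ± 0.15 (SE) above LD (adjusted p = 3.17e-10). The second BMP2 probe gave -1.30 for IMF minus SC. For IMF minus LD it gave 1.19, which is no exact value, since 11 of 36 LD arrays were well above background.

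The order of BMP2 levels was SC, Inter, Omen, IMF, Kid and LD, and only Inter and Omen were neighbours that did not differ (adjusted p = 0.672). In Kid and SC, which shared the first scan day through 5 and 11 arrays, the difference within the day was -2.14.

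BMP4 had its highest level in Omen. The 12 Omen arrays ran from -0.90 to 1.30 with a median of 0.43, whereas the 12 SC arrays ran from -1.54 to -0.46 and the 36 LD arrays from -2.63 to -0.65. Omen was 1.30 ± 0.21 (SE) above SC (2.47-fold, adjusted p = 2.21e-05) and 0.86 above IMF (adjusted p = 0.00141). The 5 Omen arrays with a mesothelial marker level of 0.84 to 1.19 had BMP4 levels of 0.52 to 1.30, and the other 7, with a mesothelial level of -2.04 to -1.07, had BMP4 levels of -0.90 to 0.76. The part of mesothelium in the Omen level was not tested. BMP4 was 0.45 ± 0.13 (SE) higher in IMF than in SC (1.36-fold, adjusted p = 0.00332) and 1.15 ± 0.13 (SE) higher than in LD (2.21-fold, adjusted p = 7.28e-11). IMF, Inter, SC and Kid followed Omen in this order, and none of these neighbours differed (adjusted p from 0.111 to 0.813). The other 2 BMP4 probes were also higher in IMF than in SC (0.38 and 0.68) and in LD (1.40 and 1.77), the latter measured against an LD level well above background on 3 of 36 arrays.

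GREM1, the BMP antagonist, was high in Omen and SC and low in Kid and LD. Omen (11 arrays, from -3.09 to 1.90, median 0.66) and SC (12 arrays, from -1.48 to 1.50, median 0.19) overlapped widely and did not differ at this spread (0.15, adjusted p = 0.812). The 5 Omen arrays with high mesothelial markers had GREM1 levels of 0.66 to 1.90, and the other 6 with a value had levels of -3.09 to 1.02. The 12 Kid arrays ran from -3.98 to -1.70 and the 36 LD arrays from -4.57 to -2.69, both wholly below SC. The differences from SC were -2.84 ± 0.32 (SE) in Kid, a 7.14-fold lower level (adjusted p = 2.91e-07), and -3.80 ± 0.20 (SE) in LD, a 13.9-fold lower level (adjusted p = 5.67e-23). Within the first scan day Kid minus SC was -2.63. IMF ran from -4.45 to 0.13 with an SD of 1.45, and was 2.07 ± 0.48 (SE) lower than SC (4.21-fold, adjusted p = 0.000545) and 1.73 ± 0.27 (SE) higher than LD (adjusted p = 1.20e-07). Inter was 1.38 ± 0.40 (SE) lower than SC (adjusted p = 0.00617). BMP2 and, on its leading probe, GREM1 thus were both lower than SC in IMF, Inter, Kid and LD, whereas in Omen BMP2 was lower and GREM1 was not.

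The probes for GREM1 disagreed. The dim probe outside the test followed the leading probe (r = 0.90 over 95 arrays, a description over arrays of 6 tissues), but was well above background on 33 of 96 arrays and on no Kid or LD array. The third probe, well above background on every array where it was measured, did not follow the leading one (r = -0.06 over 94 arrays). It gave 0.27 for IMF minus SC (adjusted p = 0.191), -0.18 for IMF minus LD (adjusted p = 0.216) and 0.45 for LD minus SC (adjusted p = 0.00288), so that LD was higher than SC on this probe and lower on the leading probe. It was lower than SC in Kid (-0.89, adjusted p = 0.000201) and in Inter (-0.57, adjusted p = 0.0308), as the leading probe was. The leading probe was named from the study's tables and the third from its accession.

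Of the TGF-beta ligands, TGFB3 stood out in IMF. Its 12 IMF arrays ran from 1.17 to 3.75 with a median of 1.79, all above the 12 SC arrays, from -0.85 to 0.46, the 12 Kid arrays, from -1.50 to 0.13, and the 36 LD arrays, from -0.82 to 0.43, and 14.9%, 8.53% and 15.5% of all probes had no overlap in these comparisons. TGFB3 was 2.33 ± 0.23 (SE) higher in IMF than in SC (5.03-fold, adjusted p = 4.79e-09) and 2.26 ± 0.15 (SE) higher than in LD (4.80-fold, adjusted p = 1.43e-18). Within the third day IMF minus LD was 2.39 and IMF minus Omen was 1.51. Inter (by 0.78, adjusted p = 0.000836) and Omen (by 0.73, adjusted p = 0.0416) were above SC, and Kid (by -0.14, adjusted p = 0.574) and LD (by 0.07, adjusted p = 0.608) did not differ from it at this spread. The TGFB3 call in Omen was lost with quantile normalization (adjusted p = 0.0555), with each array centred on its mean (adjusted p = 0.0630) and with slide as a random block (adjusted p = 0.0888). It was also lost with the study's equal-variance t-test (adjusted p = 0.0541) and, in limma, on another TGFB3 probe (0.64, adjusted p = 0.0921). The highest TGFB3 level of SC, 0.46, and that of Inter, 1.25, belonged to the same arrays that were highest in INHBA. The 5 Omen arrays with high mesothelial markers had TGFB3 levels of 0.36 to 1.70, and the other 7 had levels of -1.43 to 1.005.

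A second TGFB3 probe gave another place to LD. It was 2.60 ± 0.26 (SE) higher in IMF than in SC (adjusted p = 4.67e-09), but LD (-1.02 ± 0.32, SD, n = 36) had the same mean as IMF (-1.02 ± 0.65, SD, n = 12), with a difference of 0.00 (adjusted p = 0.978), and was 2.60 ± 0.14 (SE) higher than SC (adjusted p = 7.18e-23). The dimmest TGFB3 probe, outside the test and well above background on 50 of 96 arrays, was higher in IMF than in SC (0.98), and is not compared with LD, where 3 of 36 arrays were well above background. All 3 probes put IMF above SC, and the 2 tested probes differed in whether they put it above LD.

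TGFB1 and TGFB2 varied little between the fat depots. TGFB1 had means from -2.82 in Omen to -2.45 in Kid, none of the 10 pairs of fat depots differed, and LD, from -2.71 to -1.31 with a median of -2.04, was the highest tissue. With normexp TGFB1 passed between depots (adjusted p = 0.0269) and was lower than SC in Inter (-0.38, adjusted p = 0.00275) and Omen (-0.33, adjusted p = 0.00329), where the medians over all probes were -0.28 and -0.26 against -0.05 and -0.03 without normexp, so that these values lie close to a shift common to all probes. TGFB1 was 0.65 ± 0.12 (SE) lower in IMF than in LD (adjusted p = 4.36e-06), the only member lower in IMF than in LD, and 0.57 ± 0.12 higher in LD than in SC (adjusted p = 2.11e-05). The 3 Kid arrays with the highest TGFB1 levels, -0.96, -1.61 and -1.68, were those with the highest macrophage marker levels, 3.84, 3.09 and 2.79, and the part of macrophages in the Kid levels was not tested. TGFB2 means ran from 1.27 in Kid to 1.74 in Inter, and it was 0.33 ± 0.13 (SE) higher in IMF than in SC (1.25-fold, adjusted p = 0.0365), 0.38 higher in Inter than in SC (adjusted p = 0.0397) and 0.41 higher in IMF than in LD (adjusted p = 0.000986). Both TGFB2 calls against SC were lost with slide as a random block and in a fit of all 96 arrays together, and that of IMF was lost when any 1 of 10 of the 24 arrays was left out. The call of IMF against LD was lost with scan day as a block and within the third day (both 0.22, adjusted p = 0.125 and 0.0637).

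Each difference was also computed without the 3 arrays that stood apart, a choice made after seeing the data. The 7 members that differed between IMF and SC on all arrays, where 64.2% of all probes did, still did so. INHBA was 4.48 higher (adjusted p = 1.14e-10) and TGFB3 2.41 higher (adjusted p = 3.85e-09) in IMF. In Inter INHBA was 1.24 above SC (adjusted p = 0.000497) and TGFB3 0.78 (adjusted p = 0.000356). Some smaller calls moved. INHBA was then higher in Kid than in SC (0.76, adjusted p = 0.0114), TGFB1 was lower in Omen (-0.27, adjusted p = 0.0300), and TGFB2 no longer passed in Inter (0.37, adjusted p = 0.0599).

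The IMF minus SC differences were also computed within each breed, on 4 arrays of each depot. INHBA was 4.91 higher in IMF for Angus, 4.37 for Hereford and 3.48 for Wagyu x Angus (adjusted p = 0.000373, 0.00159 and 0.00135 in limma), and TGFB3 was 2.36, 2.56 and 2.08 higher (adjusted p = 2.64e-05, 0.00331 and 0.000144). BMP2 gave -1.58, -1.33 and -1.72 (adjusted p = 0.00163, 0.00113 and 0.00357). INHBA, TGFB3 and BMP2 thus passed in each breed alone. BMP4 (0.25, 0.61 and 0.48, adjusted p = 0.285, 0.0798 and 0.0998) and TGFB2 (0.27, 0.23 and 0.48, adjusted p = 0.280, 0.300 and 0.197) passed in none. FST, with 1.24 for Angus, 0.34 for Hereford and 1.44 for Wagyu x Angus, and GREM1, with -3.09, -1.61 and -1.52, passed in Angus and Wagyu x Angus and not in Hereford (adjusted p = 0.555 and 0.137), and the difference between breeds did not pass its own test.

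Within the 12 IMF arrays, some members moved with muscle markers. Of 16 relations between the 8 members tested and the skeletal or smooth muscle marker level, 7 passed the threshold after adjustment over the 16 (two-sided permutation test on Pearson's r). TGFB3 rose with the smooth muscle level (r = 0.84, p = 0.000290, adjusted p = 0.00464; Spearman's rho = 0.75, p = 0.00727, adjusted p = 0.0364; r = 0.67 without the 2 arrays farthest from the median marker level). TGFB2 did so too (r = 0.82, p = 0.00130, adjusted p = 0.0104; rho = 0.76, p = 0.00541, adjusted p = 0.0364; r = 0.69 without 2 arrays), and so did INHBA (r = 0.71, p = 0.00999, adjusted p = 0.0349; rho = 0.68, p = 0.0182, adjusted p = 0.0364; r = 0.70 without 2 arrays). The relations pool the breeds, whose smooth muscle levels ran from 4.62 to 5.07 in Wagyu x Angus, from 5.41 to 6.32 in Angus and from 5.52 to 7.24 in Hereford, and 4 arrays of a breed are too few to test them within it. The permutations also take no account of the slides that these arrays share. In Angus TGFB3 did not rise with the smooth muscle level, with 1.96 on the array with the lowest and 1.79 on that with the highest. In Wagyu x Angus it was 1.17, 1.79, 1.68 and 1.34 in rising order of the smooth muscle level. In Hereford it was 1.53 on the array with the lowest level and 3.75 on that with the highest. INHBA and TGFB3 did not pass the threshold with the skeletal muscle level (r = 0.34, permutation p = 0.284, adjusted p = 0.379, rho = 0.38, p = 0.221 and r = -0.05, p = 0.888, adjusted p = 0.914, rho = -0.12, p = 0.716).

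BMP2 fell with the skeletal muscle level (r = -0.74, permutation p = 0.00681, adjusted p = 0.0349; rho = -0.64, p = 0.0303, adjusted p = 0.0538; r = -0.68 without 2 arrays), as did GREM1 (r = -0.66, p = 0.0210, adjusted p = 0.0480; rho = -0.73, p = 0.00952, adjusted p = 0.0364; r = -0.73 without 2 arrays). TGFB1 rose with the skeletal muscle level (r = 0.71, permutation p = 0.0109, adjusted p = 0.0349; rho = 0.69, p = 0.0156, adjusted p = 0.0364; r = 0.66 without 2 arrays) and with the smooth muscle level (r = 0.68, p = 0.0172, adjusted p = 0.0458; rho = 0.77, p = 0.00513, adjusted p = 0.0364; r = 0.66 without 2 arrays). With the smooth muscle level BMP2 did not pass (r = -0.13, permutation adjusted p = 0.777; rho = -0.10, adjusted p = 0.818). GREM1 (r = -0.61, permutation adjusted p = 0.0693; rho = -0.69, adjusted p = 0.0364) and FST (r = -0.61, permutation adjusted p = 0.0647; rho = -0.69, adjusted p = 0.0364) passed with the smooth muscle level on Spearman's rho and not on Pearson's r. With quantile normalization 4 of the 7 relations passed, those of TGFB3, TGFB2 and INHBA with smooth muscle and of BMP2 with skeletal muscle.

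**Figure D3:**
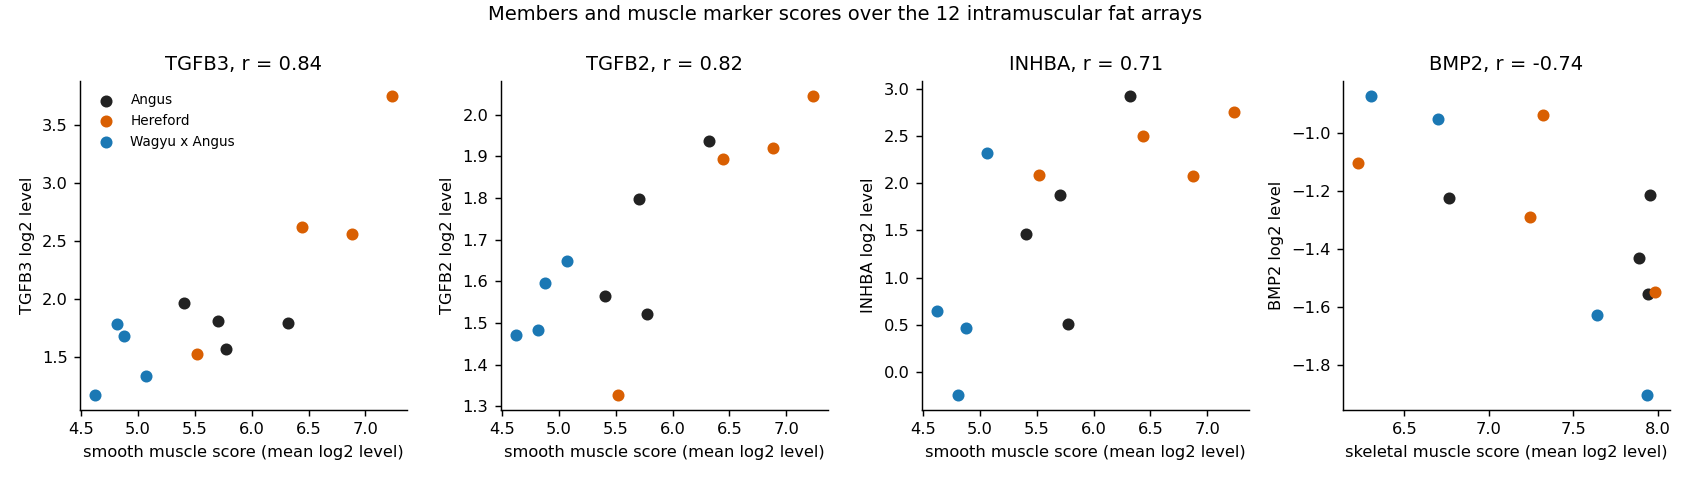
Levels of TGFB3, TGFB2 and INHBA against the smooth muscle level, and of BMP2 against the skeletal muscle level, on the 12 IMF arrays, all in log2 units relative to the array's 75th percentile; each point is an array, coloured by breed. TGFB3 rose with the smooth muscle level (r = 0.84) and BMP2 fell with the skeletal muscle level (r = -0.74).

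Over the 60 fat arrays, PDLIM3 (r = 0.91) and RBM24 (r = 0.89) were among the named genes with the pattern most like that of INHBA among 10652, and TGFB3 was the member most like it (r = 0.87). The genes most like TGFB3 were SPEG (r = 0.89), COL4A6 (r = 0.87) and TMEM47 (r = 0.87). Those most like BMP2 were CAST (r = 0.83), CA5B and PRSS23 (both r = 0.82), and GREM1 was the member most like BMP2 (r = 0.62). RAB3C, TRPM3 and GLI3 were most like GREM1 (all r = 0.76), and CFI (r = 0.76), MEIS1 and PTN (both r = 0.74) most like BMP4. VIT, CCL26 and DKK2 were most like FST (r from 0.74 to 0.77), CSK, GLRX and SLC39A3 most like TGFB1 (r from 0.74 to 0.79), and ZMYM5, CBX7 and FAM166B most like TGFB2 (r from 0.64 to 0.65). These are descriptions over arrays that share steers, slides and the depot differences.

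Of 91 other genes listed for the pathway, 53 had a probe tested, and 51 of them (96.2%) differed between fat depots, against 87.2% of all probes. In IMF against SC 41 of 53 passed, 22 higher and 19 lower, where 64.2% of all probes passed (31.2% higher and 33% lower), and against LD 44 passed, where 75.3% did. The counts of single lists in IMF against SC stand beside the same shares. Both directions were thus found in nearly every list.

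Among receptors and co-receptors, 9 of the 10 measured differed between IMF and SC, 5 higher and 4 lower. BAMBI, a decoy receptor that dampens TGF-beta and BMP signals, was 1.17 ± 0.15 (SE) higher in IMF (adjusted p = 2.09e-07), BMPR1A, a type I receptor of BMP2 and BMP4, 0.86 ± 0.09 higher (adjusted p = 1.97e-08), and ACVR2B, a type II receptor of activins, 0.63 ± 0.10 higher (adjusted p = 7.94e-06). ACVR2B and BMPR1A were higher still in LD, by 1.27 and 0.60, whereas BAMBI in IMF lay 0.17 from LD (adjusted p = 0.133). TGFBR2, the type II receptor of TGF-beta, was 0.64 ± 0.13 lower in IMF than in SC (adjusted p = 0.000225), ACVR2A 0.42 lower, and the endothelial co-receptor ENG 0.75 ± 0.10 lower (adjusted p = 8.72e-07). Of 4 endothelial markers, 0 were higher and 2 lower in IMF than in SC, and their part in the ENG level was not tested. Kid had the highest ENG mean (3.58) and the lowest ACVR2A mean (-3.01) of the 6 tissues.

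Among the other secreted inhibitors, 6 of 7 differed between IMF and SC, 2 higher and 4 lower. NOG, which encodes the BMP antagonist noggin, was highest in SC and lowest in Kid, with means of -1.06 in SC, -2.23 in IMF, -2.66 in Inter, -2.36 in Omen, -3.93 in Kid and -3.43 in LD. It was 1.18 ± 0.22 (SE) lower in IMF than in SC (adjusted p = 6.64e-05) and 2.88 ± 0.33 lower in Kid (adjusted p = 3.73e-07). SOST, another gene of this list, had a like order, with means of -0.56 in SC, -1.86 in IMF and -3.29 in Kid. It was 2.73 ± 0.34 lower in Kid than in SC (adjusted p = 9.93e-07). NOG and SOST were thus lower in IMF and in Kid than in SC. Both tested GREM1 probes were also lower in Kid than in SC, and in IMF the leading one was. BMPER, which binds BMPs outside the cell, was 1.26 ± 0.38 higher in IMF than in SC (adjusted p = 0.00583) and 1.84 ± 0.51 lower in Kid (adjusted p = 0.00564). FSTL3, a follistatin-like activin inhibitor, did not differ between IMF and SC at this spread (-0.14, adjusted p = 0.429) and was 1.22 higher in IMF than in LD (adjusted p = 1.77e-18).

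Of 9 measured genes of TGF-beta latency and activation, 6 were higher and 2 lower in IMF than in SC, where 31.2% of all probes were higher and 33% lower. ITGB6, an integrin chain that releases latent TGF-beta, was 2.93 ± 0.34 (SE) higher in IMF than in SC (adjusted p = 7.51e-08) and 1.94 higher still in LD. THBS1, which encodes the TGF-beta activator thrombospondin 1, was 1.57 ± 0.23 higher in IMF than in SC (adjusted p = 2.12e-06) and 2.33 ± 0.20 higher than in LD (adjusted p = 6.98e-15), and its Kid (4.25) and Inter (4.28) means were above its IMF mean (3.98). LTBP1, a latent TGF-beta binding protein, was 1.36 ± 0.18 higher in IMF than in SC (adjusted p = 6.67e-07) and 1.56 higher than in LD. FBN1, whose product fibrillin 1 anchors the latent complexes, was 1.06 ± 0.22 lower in IMF than in SC (adjusted p = 0.000212) and highest in Inter (1.35).

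Genes known to respond to these signals went both ways. Of 8 measured genes known to respond to TGF-beta or activin, 3 were higher and 2 lower in IMF than in SC. CCN2, a matricellular protein gene, was 1.60 ± 0.23 (SE) higher (adjusted p = 1.50e-06) and COL1A1, a collagen chain gene, 1.58 ± 0.21 lower (adjusted p = 6.54e-07). Of 8 genes known to respond to BMP, 4 were higher and 3 lower. MSX1, a homeobox gene, was 1.58 ± 0.22 lower in IMF than in SC (adjusted p = 1.17e-06), whereas in Omen 5 of the 8 were higher and 2 lower than in SC, where 45.7% of all probes differed. Among the SMADs and their regulators 5 of 7 differed between IMF and SC, 3 higher and 2 lower, with SMAD1 0.43 lower (adjusted p = 0.000220) and 1.06 lower in Kid (adjusted p = 1.37e-06). Of the other ligands, 3 of 5 activin, inhibin and GDF genes differed between IMF and SC, 2 higher and 1 lower, and 1 of 3 BMP genes, BMP5, which was 1.20 ± 0.12 lower in IMF (adjusted p = 5.80e-09) and equally 1.20 lower in Kid (adjusted p = 6.71e-07).

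Breed made no difference that passed the test in fat. Over the 60 fat arrays 0 of 8 members differed between breeds in limma (3.2% of all probes did). At an unadjusted p under 0.05 there were 2 members (16.6% of all probes). They were BMP4, with an adjusted p = 0.158, and GREM1, with an adjusted p = 0.179. The depot differences depended on breed in 0 of 8 members and 0% of all probes, and at an unadjusted p under 0.05 in 2 members (7.34% of all probes). They were INHBA, with an adjusted p = 0.638, and TGFB3, with an adjusted p = 0.636. The test of whether IMF minus SC depended on breed was passed by 0 members and 0.00584% of all probes, and by 0 members at an unadjusted p under 0.05 (6.08% of all probes).

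In LD, where both feeding groups were measured, 3 of 8 members differed between them (11.2% of all probes did). INHBA was 0.59 ± 0.18 (SE) higher with supplement (adjusted p = 0.0326), from -1.79 to 0.99 with a median of -1.10 on 12 arrays against -2.57 to -0.72 with a median of -1.47 on 24 pasture arrays. BMP4 was 0.39 ± 0.13 higher (adjusted p = 0.0436), from -1.79 to -0.65 against -2.63 to -0.88, and FST was 0.50 ± 0.16 lower (adjusted p = 0.0387), from -1.17 to 1.05 against -0.44 to 1.37. The groups overlapped in all 3 genes, and leaving out any 1 of 5, 19 and 12 of the 36 arrays ended the call of INHBA, BMP4 and FST. Of the other 3 INHBA probes, 1 was higher with supplement (0.66, adjusted p = 0.0274) and 2 did not pass (0.11, adjusted p = 0.627, and -0.19, adjusted p = 0.0902).

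Breeds differed within LD in INHBA (adjusted p = 0.0377) and TGFB1 (adjusted p = 0.00986), 2 of 8 members against 25.3% of all probes. TGFB1 was lowest in Angus, at -2.32 ± 0.22 against -1.88 ± 0.21 in Wagyu x Angus and -1.88 ± 0.45 in Hereford (SD, n = 12 each), and INHBA was highest in Hereford on the leading probe, at -0.99 ± 0.73 against -1.54 ± 0.46 in Angus and -1.64 ± 0.57 in Wagyu x Angus. None of the other 3 INHBA probes passed between breeds (adjusted p = 0.779, 0.0576 and 0.863). The feeding difference depended on breed in BMP4 (adjusted p = 0.00623) and TGFB1 (adjusted p = 0.0424), against 16.2% of all probes. Of the other 2 BMP4 probes 1 passed (adjusted p = 0.0458) and 1 did not (adjusted p = 0.864), and INHBA, which did not pass on its leading probe, passed on 1 of the other 3 (adjusted p = 0.0233). Supplement minus pasture in BMP4 was 0.95 in Angus, 0.42 in Wagyu x Angus and -0.21 in Hereford, and in TGFB1 it was -0.13, 0.21 and 0.64.

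None of these LD calls passed with the slide as a random block or with scan day as a block. With slide 1, 15 and 0 of the 34227 probes passed for feeding, breeds and feeding by breed, and with scan day 2306, 2089 and 2970. All 9 LD slides held 1 feeding group each and 7 of them held 1 breed and feeding group, and no scan day held all 6 breed and feeding groups. On each scan day that held both feedings of a breed, 4 arrays of each could be compared. There supplement minus pasture in INHBA was 0.41 in Angus, 0.17 in Wagyu x Angus and 0.96 in Hereford, in FST it was -0.63, -0.47 and -0.34, in BMP4 0.67, 0.27 and -0.06, and in TGFB1 -0.22, 0.20 and 0.29. Feeding and breed in LD can therefore not be told apart from slide for most arrays. By the study's methods the earlier kill held animals of both feedings, and the labels do not give the kill of an LD array. The feeding groups may therefore also differ in kill, and so in age, which was not tested.

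**Figure D4:**
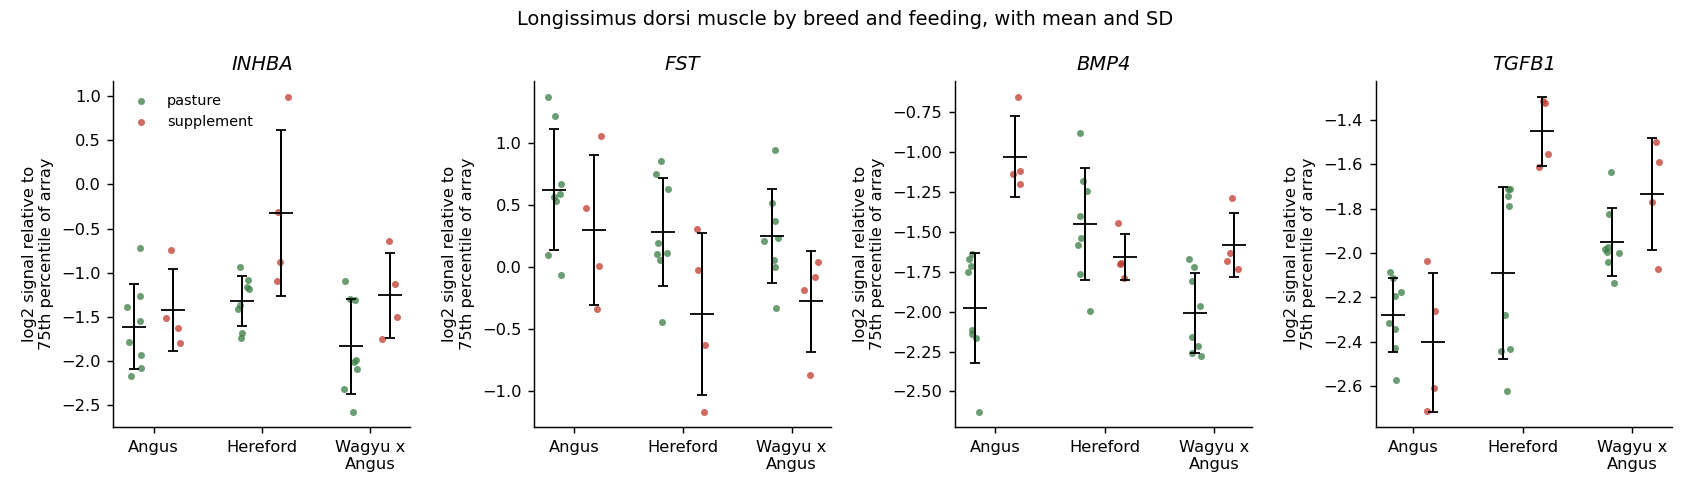
Levels of INHBA, FST, BMP4 and TGFB1 on the 36 LD arrays, in log2 units relative to the array's 75th percentile, by breed and feeding group; each point is an array, and lines are means with SD. The feeding groups overlap, and BMP4 was higher with supplement in Angus (0.95) and not in Hereford (-0.21).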

How the data were processed

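Tissue RNA (Trizol, 50 ng input, Cy3) was hybridised to one-colour Agilent arrays, 4 per slide on 24 slides, and the deposited scanner files hold processed signal intensity per spot and outlier and background flags. The series matrix deposited by the authors holds log2 values, and all 3285792 of them were 1e-04 of log2 of each spot's median signal less its median local background, floored at 1. No spot was saturated (0 spots). Here log2 processed signal minus each array's 75th percentile over non-control probes was used, outlier spots were left out and spots of a probe averaged, so a gene can lack a value on an array. Probes were named by accession (23509) or the study's probe tables (4439), and 62.7% of the 34227 probes tested had a name. A gene was represented by the probe with the highest mean log2 signal among those of the series matrix.

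Groups came from the labels. Differences were tested with limma 3.58.1 in R 4.3.3 (lmFit and eBayes, two-sided, Benjamini-Hochberg over all probes tested, threshold 0.05), on the arrays of the 2 tissues alone and without covariates. The F tests over the 60 fat arrays had depot and breed as terms, and those over the 36 LD arrays had feeding and breed. Relations within IMF used 100000 permutations. Background correction by normexp (offset 50) used the median spot signal because the mean was not in the files. Scripts were tested on simulated data. The members, the pathway and marker lists and the rule for named genes were chosen with earlier results of these data known: besides the 9 members, a listed gene is named if it differed between depots and was among the 3 of its list with the largest range, or binds a member, and the 3 genes with the highest r are named as most like a member. A gene that this rule names is not reported here. The number of arrays and the signal over background limit the precision. No sequence or coordinate is given, since no reference of the array's build was used here. The alternatives tried were other scalings, background corrections, probe sets and filters, the methods' t-test, breed, slide, scan day and replicate number in the fit, subsets of arrays and other probes of a gene.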

Additional observations from a re-analysis of the deposited data

Results flagged for a closer look

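An array far from the other 3 of its breed, depot and feeding group was found in 8 of 187 sets of gene and group, and chance flags about 1 in 20 groups. In Omen of Herefords 1 array had an INHBA level of -0.27, where the nearest other was at -1.58. INHBB, near background, had an array at -6.28 in Omen of Wagyu x Angus (nearest -6.40) and an array at -8.49 in IMF of Herefords (nearest -6.65). BMP2 had an array at 0.93 in SC of Angus (nearest 0.06), and BMP4 an array at -0.65 in LD of Angus with supplement (nearest -1.12). TGFB1 had an array at -3.28 in Inter of Wagyu x Angus (nearest -2.63), the array with the high skeletal muscle marker level, an array at -2.48 in Inter of Herefords (nearest -2.92), and an array at -2.99 in IMF of Angus (nearest -2.28).

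By a test of the difference itself, the feeding difference in LD depended on breed in BMP4 (adjusted p = 0.00623) and TGFB1 (adjusted p = 0.0424). Both calls were lost with slide or scan day in the fit.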

How the results depend on the processing

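INHBA, BMP2 and TGFB3 kept their direction and passed for IMF minus SC in all 19 alternatives that used the same probe, from 3.46 to 5.46 for INHBA, -1.72 to -1.31 for BMP2 and 2.08 to 2.71 for TGFB3. Scan day as a block and the third day alone rest on 1 SC array, which gives the limits 5.46, -1.31 and 2.71, and are no support. Other counts of members called changed as follows. IMF minus SC had 3 with scan day in the fit, 3 on the third scan day alone (4652 of 34227 probes) and 3 in Herefords alone (13329 probes). Omen minus SC had 0 with scan day and 0 on the third day alone (881 probes). In LD, supplement minus pasture had 0 with normexp (1129 probes), 0 with slide as a random block and 0 with scan day; between breeds had 0 with slide and 0 with scan day; feeding by breed had 1 with normexp (1138 probes), 1 with all non-control probes (5338 probes), 0 with slide and 0 with scan day. The relations within IMF numbered 4 with quantile normalization. Leaving out 1 array at a time gave 0 to 3 for supplement minus pasture, 1 to 3 for breeds in LD and 1 to 2 for feeding by breed. With normexp the median over all probes was -0.23 for IMF, -0.28 for Inter, -0.25 for Kid and -0.26 for Omen minus SC and -0.36 for IMF minus LD, against 0.00, -0.05, -0.01, -0.03 and -0.04 otherwise. The cause of these changes was not tested.

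The replicate number of the labels marks the array position on the slide and does not pair steers. With the replicate block the calls of TGFB2 in Inter (0.34, adjusted p = 0.0602) and of BMP4 with supplement (0.39, adjusted p = 0.0561) were lost. No other call between depots, against SC, of IMF against LD or within LD was lost. The fits without the 3 arrays, and those without the 2 arrays with most outlier spots, were chosen after seeing the data.

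GREM1 Omen minus SC was -0.0142 with slide, -1.17 with scan day and -1.17 on the third day. TGFB1 Kid minus SC was -0.11 with normexp, beside a median of -0.25 over all probes, and -0.0443 without the 3 arrays that stood apart, which also turned BMP4 (0.0426), TGFB2 (0.0978) and TGFB3 (0.0307) in Kid. TGFB3 supplement minus pasture was -0.00909 with normexp, -0.00191 with series matrix values, -0.0107 with scan day, -0.13 with its second probe and from -0.0440 to 0.0659 without 1 array. TGFB2 LD minus SC was 0.0397 with scan day and 0.0590 on the first day. With scan day over all 96 arrays TGFB1 was 0.21 for IMF, 0.17 for Inter and 0.0821 for Omen minus SC, BMP4 -0.0492 for Inter and TGFB2 0.00502 for Kid. FST LD minus SC was 0.41 on the third day, with 1 SC array, and TGFB1 IMF minus SC was 0.14 in Angus and 0.11 in Herefords. Other probes turned INHBA Inter minus SC (-0.0546) and supplement minus pasture (-0.19), BMP2 supplement minus pasture (0.25) and BMP4 Kid minus SC (0.0202). The third GREM1 probe gave 0.27 for IMF minus SC, -0.18 for IMF minus LD and 0.45 for LD minus SC, all of which passed in the opposite direction with the leading probe, and -0.0329 for supplement minus pasture.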
